A study of Mus musculus with 2 samples.

Results

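The serum-response genes described here are 10 immediate early genes of mouse embryonic fibroblasts: Egr1, Egr2, Egr3, Ier2, Ier3, Nr4a1, Nr4a2, Klf2, Klf4 and Klf6. All 10 were found by gene name among the 27745 names of the array, on 14 of its 41174 probes. The group was chosen by its known biology with the ratios of these same arrays already known, so its ratios are given as a description and support no test. Immediate early genes are transcribed within minutes of a stimulus such as serum, from factors already present in the cell, and their mRNAs are short-lived. In fibroblasts, growth factors act through the ERK kinase cascade on ternary complex factors bound with serum response factor (SRF), and through CREB on cAMP response elements. Many of the induced genes themselves encode transcription factors.

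RNA labelled KO came from embryonic fibroblasts of C57BL/6J mice with the genotype given as LATS2-/- (spelled LAT2-/- in some label fields), and RNA labelled WT from LATS2+/+ fibroblasts of the same strain. Lats2 is a kinase of the Hippo pathway that phosphorylates the coactivators YAP and TAZ. No treatment was given, the methods place the cells in medium with fetal bovine serum, and the number of embryos or cultures behind each RNA was not given in the labels. Both RNAs were hybridised together to 2 arrays, with KO in Cy5 and WT in Cy3 on array 1 and the dyes exchanged on array 2. The labels do not separate the arrays into different cultures, so they were counted as 1 replicate measured in both dye orientations, no test between genotypes was possible, and an SD below is the spread between the arrays, which may be technical. Every ratio is a log2 ratio of KO over WT, and a level is a normalized intensity in arbitrary units, comparable within a probe only.

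Lats2 RNA was not lower in the RNA labelled KO by most of its probes. Of the 4 Lats2 probes, 3 read higher in the RNA labelled KO (mean log2 ratios 0.56, 0.56 and 0.63) and the fourth lower (-0.35), and the place of the probes relative to the deletion was not given in the sources used here. The paper presents a western blot of Lats2 protein as evidence of the knockout in its fibroblasts. That blot is not among the data used here. All directions below rest on the labels, and KO and WT stand for the RNAs so labelled. All 11 measured fibroblast markers exceeded background in one RNA or both, with a median log2 ratio of -0.36 and none called in either direction. None of 7 endothelial markers was above background. Of 7 macrophage and leukocyte markers 4 were above it. Lyzs was higher (1.1, with its other probe at 0.13) and Cd14 lower (-1.05) in KO. Cd68 (0.14) and Csf1r (-0.05) were not called, and Ptprc, Emr1 and Aif1 were not above background. The summed level of this list was 1814 and 1829 in KO against 1311 and 1341 in WT. Its brightest probes decide that sum, while the median log2 ratio of the 4 detected markers was 0.05. Above background were also 2 of 6 epithelial, 2 of 4 neural and 1 of 4 muscle markers, none of them called. The summed level of the fibroblast list was 125796 and 118211 in KO against 141541 and 148283 in WT. The part of such cells in the results was not tested. In bulk RNA, fewer cells that express a gene and less of its RNA per cell cannot be told apart.

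The 10 genes did not move as a block. Egr1, Egr2 and Ier2 were lower in KO, Ier3 and Nr4a1 were higher, Klf2, Klf4, Klf6 and Nr4a2 differed by less than 2-fold, and Egr3 was not well above background. A gene was called when its brightest probe with a usable spot on both arrays passed 2-fold one way on both arrays and stood well above background in the RNA with more of it. By that rule 3 of the 10 genes were called lower and 2 higher, beside 2.61% (lower) and 2.95% (higher) of the 15877 genes above background in at least 1 RNA. By probe, 4 of the 12 member probes above background were called lower and 2 higher, beside 2.08% and 2.48% of 24186 probes. Since values of this contrast were known when the genes were chosen, nothing is read from the shares. The median log2 ratio was -0.20 over all 10 genes and -0.37 over the 9 above background, against -0.0037 over all genes above background.

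**Figure D1:**
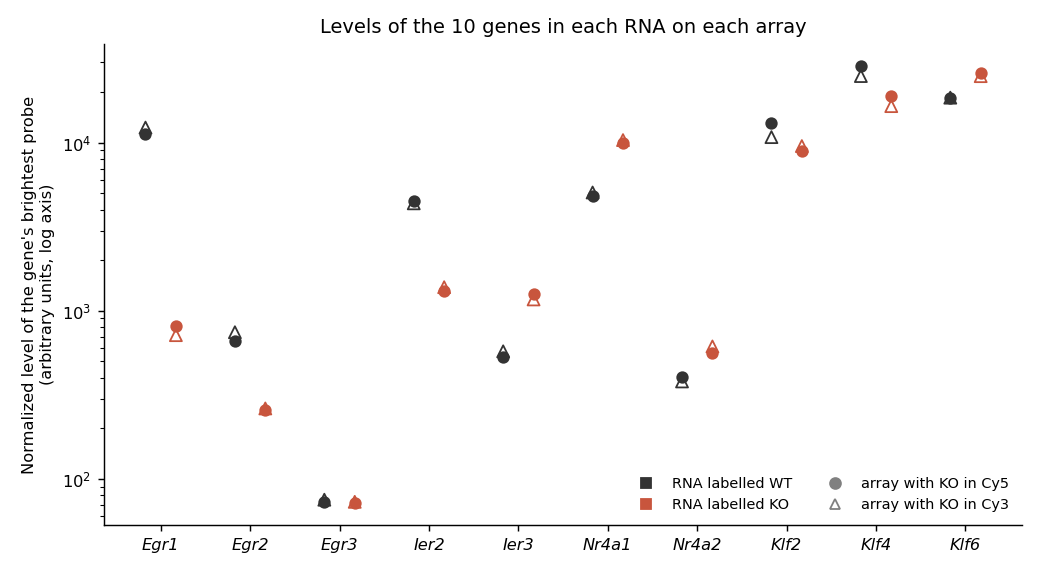
Normalized level (arbitrary units, log axis) of the brightest probe of each of the 10 genes in the RNA labelled WT (black) and KO (red) on the array with KO in Cy5 (circles) and with KO in Cy3 (triangles). Levels are comparable within a gene only; Egr1 reads 11236 and 12285 in WT and 811 and 715 in KO, whereas Egr3 lies near 70 in all 4 measurements.

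Egr1 encodes a zinc finger transcription factor that binds GC-rich promoter elements and is among the best known serum-induced genes of fibroblasts. Its level was 811 in KO and 11236 in WT on array 1, and 715 in KO and 12285 in WT on array 2. Both KO values lay far below both WT values. The log2 ratio was -3.79 on array 1 and -4.10 on array 2, with a mean of -3.95 ± 0.22 (SD, 2 arrays), so KO held 6.48% of the WT level, a 15.4-fold difference. Among the 15877 genes above background, 5 had a lower ratio, and with the labels exchanged the same 5 would be the ones with a higher ratio. The single Egr1 probe was well above background in both RNAs on both arrays, so the ratio is a measured value and not a bound.

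Egr2, the zinc finger factor also known for its role in Schwann cell myelination, was lower in KO by a smaller ratio. Its levels were 258 in KO and 665 in WT on array 1, and 262 in KO and 745 in WT on array 2. The mean log2 ratio was -1.43 ± 0.10 (SD, 2 arrays), or 37.0% of WT, a 2.70-fold difference. The Egr2 probe was printed in 10 spots on each array, which gives a measure of the error within an array. Over the 10 spots the log2 ratio ran from -1.47 to -1.26 on array 1 and from -1.60 to -1.43 on array 2. No spot came near a ratio of 0, and the SD among spots (0.0686 and 0.0448) was below the SD between arrays.

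Promoter sequence was taken from RefSeq windows (build GRCm38.p6), cut to the 250 bases before each annotated start. Windows of 7 of the 10 genes were searched, and Egr1, Egr3 and Ier2 were not searched here. The 11 windows were searched on both strands for a CArG box (the SRF site), GCGGGGGCG and GCGTGGGCG (sites bound by EGR factors), TGACGTCA (the CREB site), TGANTCA (the AP-1 site), AAAGGTCA (the NR4A monomer site), GGAATG (the site of TEAD factors, partners of YAP), TATAAA and GGGCGG. A match is a description of the letters, and nothing was measured on binding here.

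A CArG box was found in 4 of the 5 Egr2 windows, against 1.47% of all 32851 windows of this length. In 3 of these windows, which overlap, it is the same match. By gene, Egr2 was the only 1 of the 7 searched with a CArG box. The window at chr10:67537619-67537868 (plus strand) is shown because its CArG box, in capitals, begins 72 bases before the start.
Egr2: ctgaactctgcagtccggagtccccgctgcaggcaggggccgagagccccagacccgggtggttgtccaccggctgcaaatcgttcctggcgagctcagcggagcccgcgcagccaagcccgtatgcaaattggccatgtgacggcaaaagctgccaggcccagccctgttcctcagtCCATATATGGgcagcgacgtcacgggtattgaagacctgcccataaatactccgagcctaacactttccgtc

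Egr3, a further EGR factor, could not be compared. Its brighter probe read 71.8 in KO and 73.3 in WT on array 1 and 73.0 and 75.1 on array 2, and the other probe read 68.6 to 73.2 over the same 4 measurements. Neither probe was well above background in either RNA on both arrays, so no fold is given.

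Ier2 is a short-lived nuclear protein induced with the Egr genes. Its brightest probe read 1308 in KO and 4511 in WT on array 1, and 1380 in KO and 4353 in WT on array 2. Both KO values lay far below both WT values, with a mean log2 ratio of -1.72 ± 0.09 (SD, 2 arrays), or 30.3% of WT, a 3.30-fold difference. The dimmer Ier2 probe read 134 and 276 on array 1 and 152 and 307 on array 2, each time with KO first, a log2 ratio of -1.03 ± 0.02 (SD, 2 arrays). Both probes were called lower, but their ratios were 0.69 apart, so the size given for the Ier2 difference depends on the probe. The brightest probe maps to 35 bases of the genome.

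Ier3, which encodes a regulator of cell survival and ERK signalling, went the other way. It read 1265 in KO and 534 in WT on array 1, and 1167 in KO and 574 in WT on array 2. Both KO values were above both WT values, and the mean log2 ratio was 1.13 ± 0.15 (SD, 2 arrays), a 2.20-fold higher level in KO. The lower of its single-array ratios, 1.03, was only just past the threshold.

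Nr4a1 and Nr4a2 encode orphan nuclear receptors that are induced by serum and by cAMP. Nr4a1 read 10013 in KO and 4793 in WT on array 1, and 10353 in KO and 5050 in WT on array 2. The levels in KO were about the same on both arrays, as were those in WT, and the mean log2 ratio was 1.05 ± 0.02 (SD, 2 arrays), a 2.07-fold higher level in KO. With single-array ratios of 1.06 and 1.04, the call rests on a narrow margin. Nr4a2 read 564 in KO and 404 in WT on array 1, and 613 in KO and 380 in WT on array 2. Its KO values were above its WT values, but the mean log2 ratio of 0.59 ± 0.15 (SD, 2 arrays), or about 1.5-fold, was not called. Their relative Nr4a3 was not above background.

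**Figure D2:**
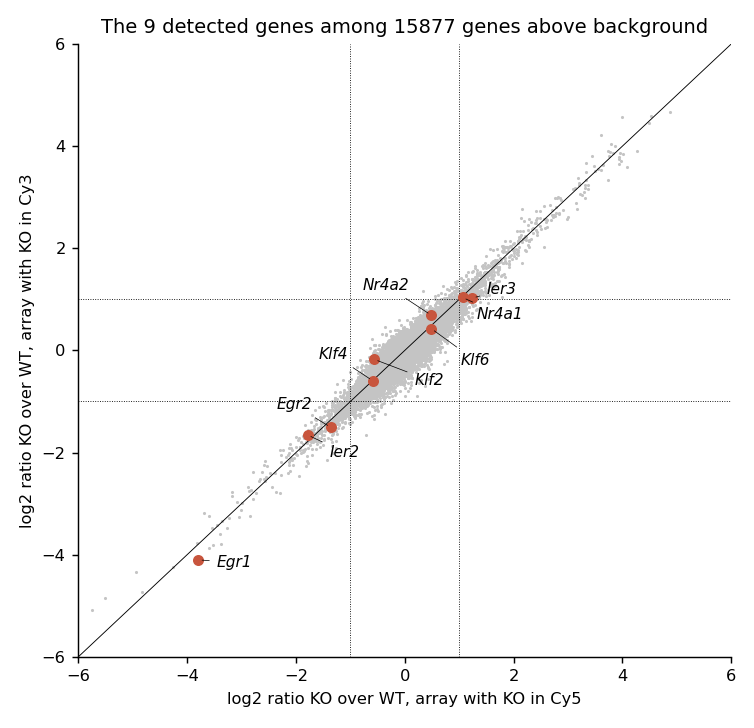
Log2 ratio of KO over WT on the array with KO in Cy5 (x axis) against the ratio on the array with KO in Cy3 (y axis) for the 15877 genes above background (grey) and the 9 detected genes of the group (red); dotted lines mark 2-fold and the solid line equal ratios. Egr1, Ier2 and Egr2 lie beyond 2-fold at the lower left, Ier3 and Nr4a1 just past it at the upper right, and Klf2 is the member farthest from the diagonal.

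The Klf genes encode zinc finger factors that bind GC-rich and CACCC elements. Klf4, one of the reprogramming factors and an inhibitor of fibroblast proliferation, read 19010 in KO and 28625 in WT on array 1, and 16484 in KO and 24886 in WT on array 2. The KO values did not overlap the WT values. The log2 ratio was -0.59 on each array (SD 0.0027), or 66.3% of WT, a 1.51-fold difference. At a threshold of 1.5-fold on each array Klf4 joined Egr1, Egr2 and Ier2, so that 4 genes were called lower and 2 higher, beside 7.17% and 7.04% of all genes above background.

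Klf2, a factor best known from endothelial and T cells, was the least steady of the group. It read 8856 in KO and 13049 in WT on array 1, and 9539 in KO and 10782 in WT on array 2. The log2 ratio was -0.56 on the first array and only -0.18 on the second, a mean of -0.37 ± 0.27 (SD, 2 arrays). A brighter Klf2 probe gave -0.39 on array 1, but its spot was marked as an outlier on array 2 and was left out, and with outlier spots kept this probe gave a mean of -0.46.

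Klf6, which is widely expressed and induced by serum and wounding, read 25812 in KO and 18401 in WT on array 1, and 24851 in KO and 18513 in WT on array 2. Its KO values were above its WT values on both arrays, with a mean log2 ratio of 0.46 ± 0.04 (SD, 2 arrays), or 1.37-fold. The second Klf6 probe gave 0.55 ± 0.07 (SD, 2 arrays), so the probes differed by 0.0928. Neither reached 1.5-fold on both arrays.

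Over both arrays the KO and WT levels did not overlap in 9 of the 9 detected genes, 5 with KO lower and 4 with KO higher. This holds little information, since among all genes above background 38.7% were separated with KO lower and 37.6% with KO higher. Probes above background varied between the arrays with an SD of 0.137 on the log2 scale. Against that spread the ratios of Klf2 and Klf6 were the smallest of the detected members and that of Egr1 the largest.

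The sequence GCGGGGGCG, to which EGR proteins bind, was found in the windows of 3 of the 7 genes (Nr4a1, Klf2 and Klf4), against 2.57% of all windows. The first share is of genes, which have 11 windows together, and the second is of windows. The motif holds only G and C, and the base content of the windows was not matched. These 3 genes differ in direction, with mean log2 ratios of 1.05 for Nr4a1, -0.37 for Klf2 and -0.59 for Klf4. The windows are printed because they hold this match, in capitals, on either strand. They lie at chr15:101266596-101266845 (plus strand) for Nr4a1, chr4:55532476-55532725 (minus strand) for Klf4 and chr8:72318812-72319061 (plus strand) for Klf2. The match begins 60, 194 and 199 bases before the start, respectively, and Nr4a1 also holds GGAATG on the opposite strand, the capitals that begin 198 bases before the start.
Nr4a1: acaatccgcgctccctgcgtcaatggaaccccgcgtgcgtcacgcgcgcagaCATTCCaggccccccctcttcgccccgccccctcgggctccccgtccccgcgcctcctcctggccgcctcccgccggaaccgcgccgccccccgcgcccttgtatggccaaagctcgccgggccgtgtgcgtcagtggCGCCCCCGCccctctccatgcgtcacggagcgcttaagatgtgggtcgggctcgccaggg
Klf4: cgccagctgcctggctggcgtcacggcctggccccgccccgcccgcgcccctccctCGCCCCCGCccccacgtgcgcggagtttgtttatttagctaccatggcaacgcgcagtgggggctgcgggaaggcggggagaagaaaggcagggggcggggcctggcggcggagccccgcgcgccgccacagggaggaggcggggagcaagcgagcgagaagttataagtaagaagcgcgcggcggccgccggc
Klf2: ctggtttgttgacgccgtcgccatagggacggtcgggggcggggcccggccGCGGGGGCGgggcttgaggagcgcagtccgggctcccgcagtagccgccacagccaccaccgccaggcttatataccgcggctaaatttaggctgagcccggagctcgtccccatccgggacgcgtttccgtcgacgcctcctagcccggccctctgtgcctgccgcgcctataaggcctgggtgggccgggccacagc

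GGAATG was further found in 1 Egr2 window, and 12.6% of all windows hold it. TATAAA was found in the Nr4a2 window, as in 12.4% of all. GGGCGG, present in 32.7% of all windows and partly overlapping GCGGGGGCG, was found in windows of all 7 genes, and it was the only motif of the search found for Ier3 and Klf6. Here too the count is of genes and the share is of windows, and only 2 of the 5 Egr2 windows held GGGCGG. It also holds only G and C, and base content was not matched. No window of the 7 genes held TGACGTCA, TGANTCA, GCGTGGGCG or AAAGGTCA, which were found in 1.55%, 6.75%, 0.536% and 1.34% of all windows, and this says only that these letters are not in those 250 bases.

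The other immediate early genes on the array were also called in both directions. Of 26 measured, all above background, 7 were called lower and 3 higher, beside 2.61% and 2.95% of all genes above background. The same shares stand beside the counts of the lists below. All these lists were written with earlier results of these data known, so nothing is read from the shares. The median log2 ratio of the 26 genes was 0.29, beside -0.0037 for all genes. Fos (-3.73) and Fosb (-3.16), AP-1 subunits that are induced together with Egr1, were the lowest. Below 2-fold of WT on each array were also Rgs2 (-2.04), an inhibitor of G protein signalling, and Arc (-1.78), known from neurons. Junb (-1.51), the kinase gene Sgk (-1.22) and Zfp36 (-1.15), whose product destabilises mRNAs, were likewise called lower. The other probes of Rgs2, Sgk and Zfp36 read -0.37, 0.06 and -0.56, so the calls of these genes hold for the brightest probe. The 3 genes called higher were Nfkbiz (1.26), a nuclear IκB protein, Maff (1.16), a small Maf factor, and Ptgs2 (1.1), the inducible cyclooxygenase. Jun (-1.0) missed the call on 1 array, and Myc (0.36), Atf3 (0.37) and Dusp1 (0.11) differed little.

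Among 21 relatives of the members, which include the remaining Klf genes, Egr4, Wt1, the EGR corepressors Nab1 and Nab2, Nr4a3, Ier5 and Ier5l, 15 were above background. Of these Klf5 was called higher (1.56) and Klf12 lower (-1.56), with a median of 0.02. Klf5, a factor of proliferating cells, has a second probe at 0.15, and the 4 probes of Klf12, a repressor, ran from -1.56 to -0.07. Both calls therefore rest on the brightest probe. Nab1 (-0.33) and Nab2 (0.02) were not called.

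None of the listed genes for proteins that act upstream was called. Among all genes above background 2.61% were called lower and 2.95% higher, so the lack of a call in lists this short holds little information. Of 10 factors that act on serum response and cAMP response elements, 7 were above background and none was called, with a range from -0.70 (Elk3) to 0.28 (Srf) and a median of -0.19. Of 14 genes of the ERK cascade none was called, with a median of 0.08, although the brightest probe of Araf reached 1.01, with its other probe at -0.09. RNA levels give no measure of the activity of these proteins. Of 14 actin and smooth muscle genes that SRF activates with its MRTF partners, Cnn1 (-2.11), the smooth muscle calponin, was called lower and none higher, and the median was 0.12.

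As a comparison, 5 heat shock genes were above background, with Hspb1 higher (2.38) and Hspa1a lower (-1.93) and a median of -0.58. A second Hspb1 probe read 0.01. Of 10 housekeeping genes, Ywhaz (-1.57) was called lower, with other probes up to -0.04, and the median was -0.07. Time since medium change and cell density at harvest were not given in the sources used here, and their part in the levels of the 10 genes was not tested.

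**Figure D3:**
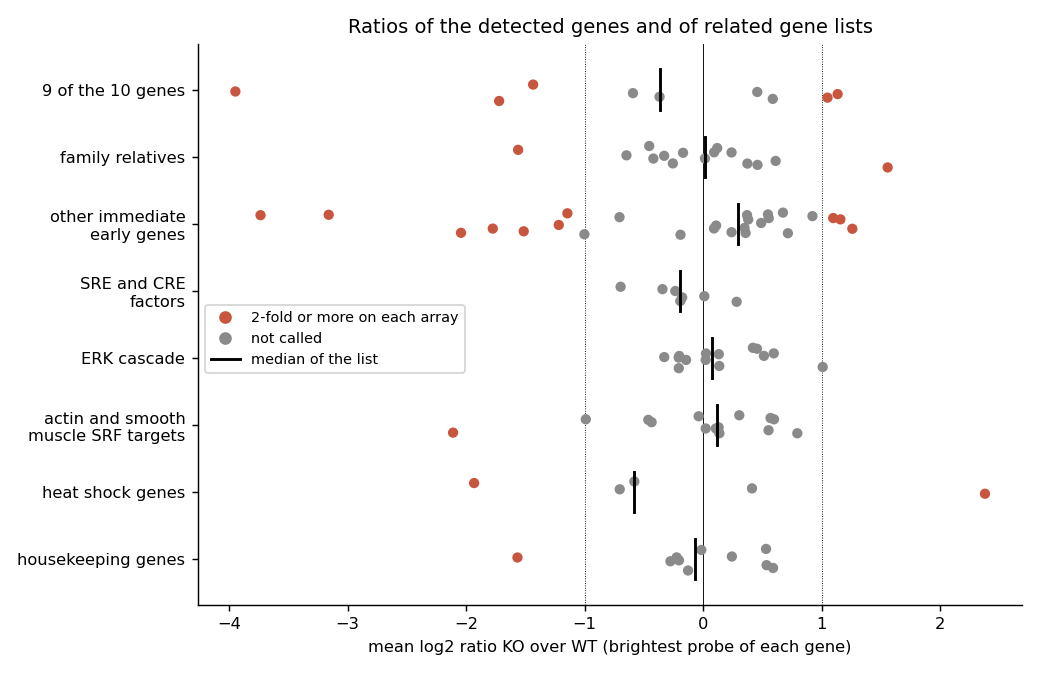
Mean log2 ratio of KO over WT (x axis) of the brightest probe of each gene above background, for 9 of the 10 genes and for related lists (SRE, serum response element; CRE, cAMP response element); red points passed 2-fold on each array, black bars are list medians, and the vertical scatter of points has no meaning. Called genes lie on both sides in the group itself, among its relatives and among other immediate early genes. None of the SRE and CRE factors or of the ERK cascade was called, in short lists beside 2.61% (lower) and 2.95% (higher) of all genes above background.

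Median centring changed the single-array ratios more than their means. With it in place of loess, single-array ratios of Egr1 were -2.89 and -4.91, but their mean was -3.90. Under that setting Klf2, Klf4 and Klf6 had opposite signs on the arrays, of the 5 called genes only Egr1 kept its call, and 65.5% of all called probes were higher in KO, as opposed to 54.4% with loess. The mean log2 ratio of no member changed sign under any of the 9 alternatives computed for each, which are not all independent.

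**Figure D4:**
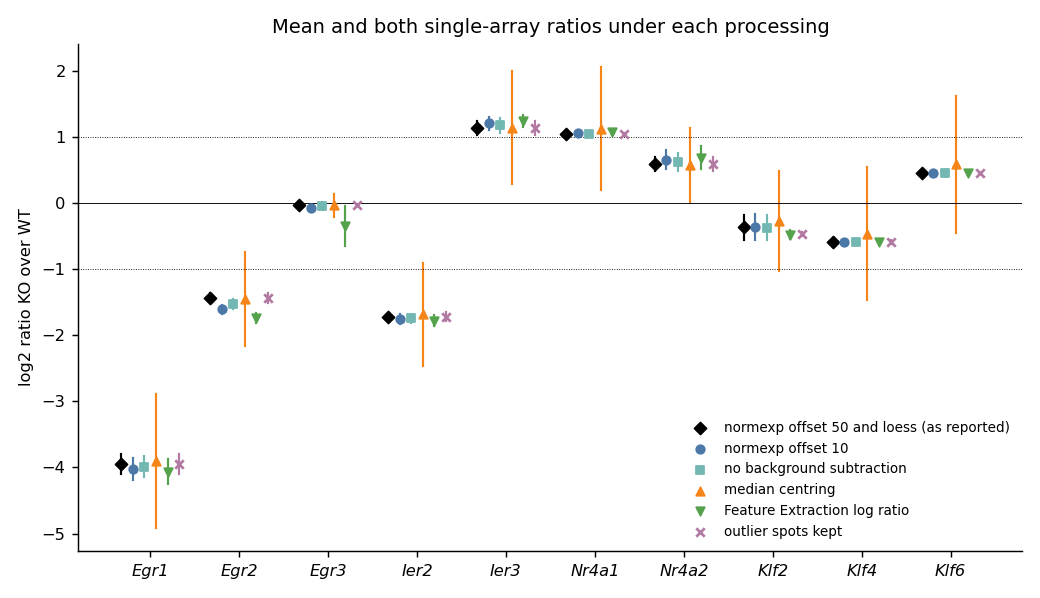
Log2 ratio of KO over WT (y axis) of each gene under 6 ways of processing the same arrays; symbols are means of both arrays, vertical lines join the single-array ratios, and dotted lines mark 2-fold. Means stay close together for each gene, while the single-array ratios spread widely under median centring.

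On the mm8 build, as the scanner files give probe positions, the member probes lie at chr18:34990715-34990774 for Egr1, chr10:66937367-66937426 for Egr2, chr14:68817252-68817311 and chr14:68814100-68814159 for Egr3, and chr8:87549656-87549690 and chr8:87549829-87549887 for Ier2. The Ier3 probe lies at chr17:35430636-35430695, that of Nr4a1 at chr15:101102674-101102733 and that of Nr4a2 at chr2:56923674-56923733. The probes of Klf2 lie at chr8:75250227-75250286 and chr8:75248851-75248910, that of Klf4 at chr4:55549061-55549120, and those of Klf6 at chr13:5869371-5869430 and chr13:5866706-5866765. No annotation of this build was used here, so exons and UTRs are not assigned.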

How the data were processed

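Two-colour Agilent whole mouse genome arrays were read by the authors with Feature Extraction 10.5.1.1, and both lie on the same slide. The authors deposited mean signals and local median backgrounds as intensity per spot, together with Feature Extraction's log10 ratio of Cy5 over Cy3. The deposited table of log2 ratios equalled those ratios turned to KO over WT (median absolute difference 2.05e-07), with column medians of -0.0177 and 0.0367. Here limma 3.58.1 (R 4.3.3) applied normexp (offset 50) and loess within each array. Control spots and spots with outlier flags (390 and 378 of 43379) had weight 0 and were left out. Spots of a probe were averaged, array 2 was turned, and both arrays were averaged. Levels were scaled between arrays with Aquantile. Median signals were 58.2 to 98.5 over a background of 30 to 36, no spot was saturated, and the number of arrays limits the precision. On simulated data (41174 probes) the script recovered 100% of 200 changed probes with 0 false calls. That run checks the working of the script only. The accuracy of the calls on the measured arrays, such as those of Ier3 and Nr4a1 near the threshold, was not tested. The t-test of the methods was not run because the arrays count as 1 replicate. Members and gene lists were chosen with earlier results of these data known. Named were all members, and of the lists the genes called or needed for a statement. Other background, normalization, flag, probe, filter and threshold settings were tried.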

Additional observations from a re-analysis of the deposited data

How the results depend on the processing

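Of 90 recomputed member ratios, 81 moved by less than the SD of a probe between arrays (0.137) and 9 moved further, 6 of them to a larger and 3 to a smaller size. None changed sign. The count of members called stayed at 3 lower and 2 higher except with median centring (1 lower and 0 higher) and at 1.5-fold (4 lower). With median centring the single-array ratios lay further apart, and 2.03% of all probes were called in place of 4.56%. Feature Extraction's log ratio and the deposited table called 10.2% of probes, with a member median of -0.41 in place of -0.20, and gave Egr2 as -1.74. That median lies between Klf2 (-0.48, in place of -0.37) and Egr3 (-0.35, in place of -0.04). Egr3 was not well above background, so the shift of the median is not one of the group. With the reported processing the median was -0.37 over members above background. All probes without the detection filter gave 2.70% called and 1.5-fold gave 12.4%. Averaging both Ier2 probes gave -1.37. Array 1 alone gave -3.79 and array 2 alone -4.10 for Egr1. Each ratio already sets KO against WT on the same array, and no further paired test was possible because the labels name no biological replicates. Dim genes are limited by signal over background, as for Egr3.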

Other observations

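Probes of other genes within 20 kb of the member probes (mm8) were read for their ratios. Flot1, a membrane raft protein gene beside Ier3, was called higher in KO, with log2 ratios of 1.08 and 1.24 on the arrays. The transcript 2210008N01Rik beside Nr4a2 had 0.83 and 0.94 and was not called. Reep2 beside Egr1 had a mean of 0.02, Gm237 beside Egr2 had -0.21, and the Btbd14b probes beside Ier2 ran from -0.27 to -0.10.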
